A study of Mus musculus with 14 samples.

Results

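The loci of the Runx genes and of Cbfb were mapped region by region for 13 transcription factors in Hoxb8-FL cells. Each gene was taken with 50 kb on both sides, which is called its locus, and a peak belonged to it by its midpoint. By this rule 529 of 279955 peaks were members, of which 217 lay at Runx1, 170 at Runx2, 111 at Runx3 and 31 at Cbfb. Peaks that overlapped by 1 bp or more were joined, which gave 61 regions at Runx1, 58 at Runx2, 34 at Runx3 and 12 at Cbfb, 165 of the 121996 regions in the genome.

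Hoxb8-FL is a mouse progenitor line, labelled as similar to lymphoid-primed multipotent progenitors, that is held in an immature state by an oestrogen-regulated Hoxb8 gene. All cells were grown with serum, oestradiol and FLT3, received no other treatment and were fixed in formaldehyde at 0.4% or 1%. Chromatin was precipitated in 1 library for each of the ETS factors Spi1 (PU.1), Fli1 and Erg, the C/EBP factors Cebpa and Cebpb, the helix-loop-helix factors Tal1 and Lyl1 with their partner Lmo2, the Gfi1 and Gfi1b repressors, and Gata2, Meis1 and Runx1, and in a rabbit IgG control that was not analysed here. No factor has a replicate, the lists give positions of 400 bp peaks without heights or read counts, and the depth of the libraries is unknown, so no test was made and counts of different factors are not amounts of binding. The labelled cell type could not be compared with marker levels, since no expression was measured.

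Runx proteins bind DNA through the Runt domain. Cbfb does not contact DNA itself but joins the Runx protein and raises its affinity. Runx1 is required for the first blood stem cells and later for lymphoid and megakaryocytic cells, Runx2 directs bone formation, and Runx3 acts in T cells and neurons. Each Runx gene is transcribed from a distal and a proximal promoter that give proteins with different amino ends, and an enhancer inside Runx1, between its promoters, is active in blood stem cells.

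A start of each Runx gene carried a shared paired Runx sequence. A Runx1 peak was centred on it at Runx1 and at Runx3, and no Runx1 peak was called on it at Runx2. Depth is unknown, so the missing peak at Runx2 does not show that binding was absent. In the direction of transcription, 18 bases (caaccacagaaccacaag) were identical at the distal start of Runx1, the start of Runx2 and the distal start of Runx3, and of 21012 windows around starts of protein-coding genes, each 300 bases long (250 upstream and 50 downstream), only these 3 held them. The 18 bases were taken as the run common to these 3 windows, so their presence in all 3 was fixed in advance. The sites are printed 5′ to 3′ on the strand of the gene because the peak of Runx1 was centred on 2 of them. Capitals mark matches to the Runx cores TGTGGT and TGCGGT, read on either strand, so that ACCACA is the first core in reverse.
Runx1 distal start: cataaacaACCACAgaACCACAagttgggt
Runx2 start: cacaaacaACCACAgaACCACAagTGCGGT
Runx3 distal start: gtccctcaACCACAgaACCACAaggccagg
The Runx1 site was at chr16:92826025-92826054 on the minus strand, from base 21 to base 50 of the transcribed side of the start. The Runx2 site was at chr17:44814583-44814612 on the minus strand, from base 16 to base 45. The Runx3 site was at chr4:135120503-135120532 on the plus strand and lay before the start, from base -142 to base -113. Sequences and starts are those of RefSeq on GRCm38.p6 (mm10), the build of the peak lists.

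The centre of the Runx1 peak was 1.0 bp from the centre of the pair at Runx1 and 2.0 bp from it at Runx3. At Runx2 the nearest Runx1 peak was 37.53 kb away. Among 904 start windows with both a Runx1 peak and a core, the peak centre was a median of 45.5 bp from the nearest core (quartiles 17.75 and 135 bp), and in 86 of them (9.51%) it was within 6 bp. By that measure the distance was 3.0 bp at Runx1 and 2.0 bp at Runx3. The pair, ACCACA, then any 2 bases, then ACCACA, in either orientation, was found in 4 of the 21012 windows (0.019%), those of the 3 Runx genes and of the olfactory receptor gene Olfr24, and Olfr24 had no peak of any factor. The pair and the limit of 6 bp were chosen after the values were seen.

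A Runx core alone was common. It was found in 21.4% of all start windows (TGTGGT in 14.7%, TGCGGT in 7.44%), and 2.56% of windows held 2 or more. A Runx1 peak lay on 12.6% of the windows without a core, on 19.7% of those with 1 and on 23.5% of those with 2 or more. The Runx2 window held 4 cores, as did 0.0428% of windows (that many or more), and no Runx1 peak. The Cbfb window and the proximal windows of Runx1 and Runx3 held none.

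The 250 bases before 4 of the starts are printed to show the surroundings of starts with and without a Runx1 peak, with matches to the searched motifs in capitals. Motifs were read on both strands with overlaps counted, and the share of all 21012 windows that hold each follows it. For ETS factors they were CCGGAA (18.9%), AGGAAG (34.1%) and GAGGAAG (13.3%), of which the last contains the one before it. For Gata factors they were AGATAA (9.68%) and TGATAA (7.52%), and for E-box factors CAGCTG (15.7%) and CATCTG or its reverse CAGATG (14.4%). The C/EBP motif was TTGCNNAA (10.3%), the Gfi motifs AATCAC (9.84%) and AATCTC (10.7%), and the Meis motif TGACAG (18.3%).
Runx1 distal start: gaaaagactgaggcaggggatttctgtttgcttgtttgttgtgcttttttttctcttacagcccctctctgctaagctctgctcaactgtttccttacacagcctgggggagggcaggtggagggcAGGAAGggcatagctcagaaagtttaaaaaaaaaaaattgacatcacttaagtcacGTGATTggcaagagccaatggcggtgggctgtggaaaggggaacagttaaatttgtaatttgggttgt
Runx1 proximal start: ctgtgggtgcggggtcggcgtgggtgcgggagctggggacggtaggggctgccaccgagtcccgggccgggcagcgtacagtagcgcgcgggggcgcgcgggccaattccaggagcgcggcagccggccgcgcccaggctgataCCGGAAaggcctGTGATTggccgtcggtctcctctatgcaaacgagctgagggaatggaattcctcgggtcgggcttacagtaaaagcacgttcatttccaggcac
Runx3 distal start: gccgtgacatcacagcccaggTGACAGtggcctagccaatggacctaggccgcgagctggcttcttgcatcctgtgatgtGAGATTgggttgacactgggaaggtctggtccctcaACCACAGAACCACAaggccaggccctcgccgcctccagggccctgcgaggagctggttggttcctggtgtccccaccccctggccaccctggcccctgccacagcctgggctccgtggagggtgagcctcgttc
Cbfb start: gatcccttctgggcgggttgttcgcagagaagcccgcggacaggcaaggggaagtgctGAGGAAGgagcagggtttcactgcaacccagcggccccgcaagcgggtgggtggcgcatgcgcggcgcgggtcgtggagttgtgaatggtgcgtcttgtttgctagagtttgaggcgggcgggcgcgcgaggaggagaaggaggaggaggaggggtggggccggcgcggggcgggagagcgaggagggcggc
These were chr16:92826075-92826324 and chr16:92697330-92697579 on the minus strand, and chr4:135120395-135120644 and chr8:105170424-105170673 on the plus strand. The Runx1 distal stretch held 1 ETS and 1 Gfi match, and its Runx pair lies after the start. The proximal stretch held 1 ETS and 1 Gfi match. The Runx3 stretch held the Runx pair, 1 Gfi and 1 Meis match, and the Cbfb stretch held an ETS match in a longer ETS match. Any ETS motif was found in 46.7% of all windows and any Gfi motif in 19.2%.

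The 6 starts used here differed in the factors on them. For Runx2 only 1 start was used, so another promoter of Runx2 was not examined. The window of the Runx1 distal start overlapped peaks of 8 factors, Cebpa, Cebpb, Fli1, Gfi1b, Lmo2, Runx1, Spi1 and Tal1. The window of the Runx3 distal start overlapped 5, Cebpb, Lmo2, Lyl1, Runx1 and Tal1, and this region also reached the start of the non-coding gene Gm16225. The Runx3 proximal start had Fli1, Lmo2 and Spi1, the Cbfb start had Cebpb, Fli1 and Spi1, and the Runx2 start had Cebpb and Spi1. No peak overlapped the window of the Runx1 proximal start. Over all start windows a peak was found for Spi1 in 22.9%, Fli1 20%, Lmo2 14.3%, Runx1 14.2%, Cebpb 14.1%, Cebpa 13%, Gfi1b 3.57%, Tal1 1.85% and Lyl1 1.58%. None of the 6 windows had Erg (10.3% of all windows), Gfi1 (4.89%), Gata2 (1.95%) or Meis1 (1.18%). Tal1 and Lyl1, basic helix-loop-helix factors that are rare at starts in these lists, were thus present at the distal starts of Runx1 (Tal1) and Runx3 (both).

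At the Runx1 locus every one of the 13 factors had a peak, and so did 5.99% of the 21631 protein-coding loci. The PU.1 library (Spi1) gave 40 peaks, Cebpb 31, Cebpa 26, Fli1 18, Lmo2 18, Runx1 16, Tal1 16, Lyl1 13, Gfi1 10, Gfi1b 9, Meis1 9, Erg 8 and Gata2 3. Its 16 Runx1 peaks were the second largest number at any protein-coding locus, after 25 at Gse1. By rank, with ties given the best rank, the Runx1 locus was 3 for Lyl1 and 5 for both Fli1 and Gfi1. Counting itself, 4 loci had as many or more Lyl1 peaks, 7 as many or more of Fli1 and 17 of Gfi1. Its lowest ranks were 38 for Lmo2 and 46 for Gata2 and Meis1. A Runx1 peak was present at 56.8% of protein-coding loci, as was a Tal1 peak, and a Lyl1 peak at 40.5%. The shares were 84.7% for Spi1, 69.7% for Fli1 and 51.7% for Erg, 75.5% for Cebpb and 74.3% for Cebpa, 69.0% for Lmo2, 50.6% for Meis1, 49.1% for Gfi1, 46.5% for Gfi1b and 23.2% for Gata2, so that a peak of most factors at a locus is common and Gata2 is the least so. Length bears on such counts. Per 100 kb the locus had 66.85 peaks, against a median of 15.826, and ranked 427.

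Runx2, with 13 factors, had 38 Spi1 peaks, 22 of Cebpa, 20 of Cebpb, 18 of Lmo2, 16 of Fli1, 13 of Tal1, 10 of Lyl1, 9 of Runx1, 7 of Erg, 6 of Gfi1, 5 each of Gfi1b and Meis1, and 1 of Gata2. Runx3, with 12, had 25 Spi1 peaks, 18 of Lmo2, 11 of Tal1, 10 each of Fli1 and Cebpb, 9 of Cebpa, 8 of Lyl1, 7 of Runx1, 6 of Meis1, 3 each of Gfi1 and Erg, and 1 of Gata2, with no peak of Gfi1b, a repressor of the Gfi family. Cbfb, with 11, had 6 Spi1 peaks, 5 of Cebpb, 4 each of Cebpa and Lmo2, 3 each of Fli1 and Runx1, 2 of Erg and 1 each of Gata2, Gfi1, Gfi1b and Lyl1, and none of Meis1 or Tal1. Per 100 kb these loci had 40.591 peaks at Runx2, 70.545 at Runx3 and 21.043 at Cbfb. The order of Runx1 and Runx3 turned with the flank, since with 10 kb either side Runx1 had 70.7 peaks per 100 kb and Runx3 56.9.

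**Figure D1:**
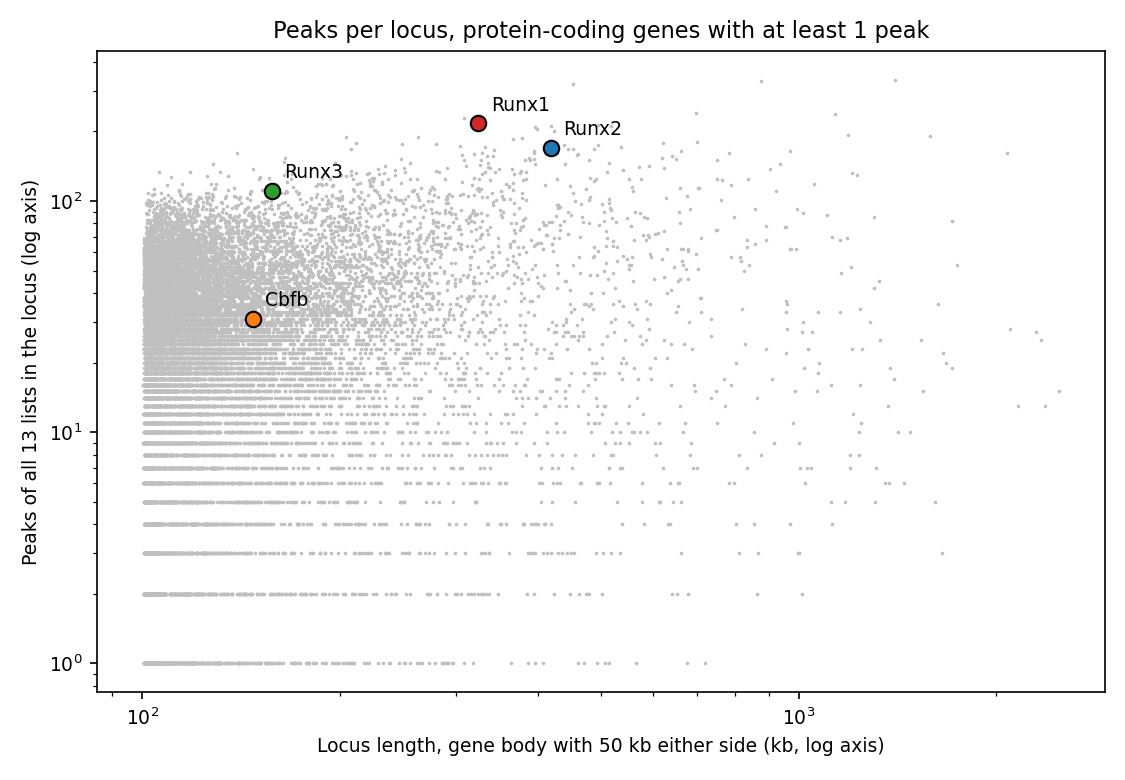
Number of peaks in each protein-coding locus with at least 1 peak (grey points), by locus length in kb, both on log axes, with the 4 members in colour. Runx1 (217 peaks) and Runx2 (170) sit at the top of the cloud, Runx3 (111) in its upper part and Cbfb (31) near its middle.

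Regions held by many factors were most numerous at Runx1. Of its 61 regions, 7 (11.5%, exact 95% interval 4.74 to 22.2%) held 10 or more factors, against 2.32% of all regions, and no protein-coding locus had more (Zfp608 also had 7). This count is not adjusted for length. The Runx1 locus is 324.609 kb long, while Zfp608 had its 7 in 204.547 kb and Gtf3c5 had 6 in 117.035 kb. Any such region was present at 17.3% of loci. Regions with 5 or more factors numbered 18 at Runx1 (29.5%), 14 at Runx2, 9 at Runx3 and 2 at Cbfb, and made up 12.9% of all regions. Those with 7 or more numbered 11 at Runx1 (18.0%), 6 at Runx2, 7 at Runx3 and 2 at Cbfb, against 6.99%. Runx2 and Runx3 had 1 region each with 10 or more, and Cbfb had none. Regions with 1 factor were 24 of 61 at Runx1 (39.3%, against 56.3% of all regions). Spi1 alone made up 17 of the 61 (27.9%, against 36.6%), and Cebpa with Cebpb and no other factor made up 9 (14.8%, against 8.67%). Intervals here cover counting error only, and with merging at an overlap of 200 bp the 7 regions at Runx1 became 5.

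**Figure D2:**
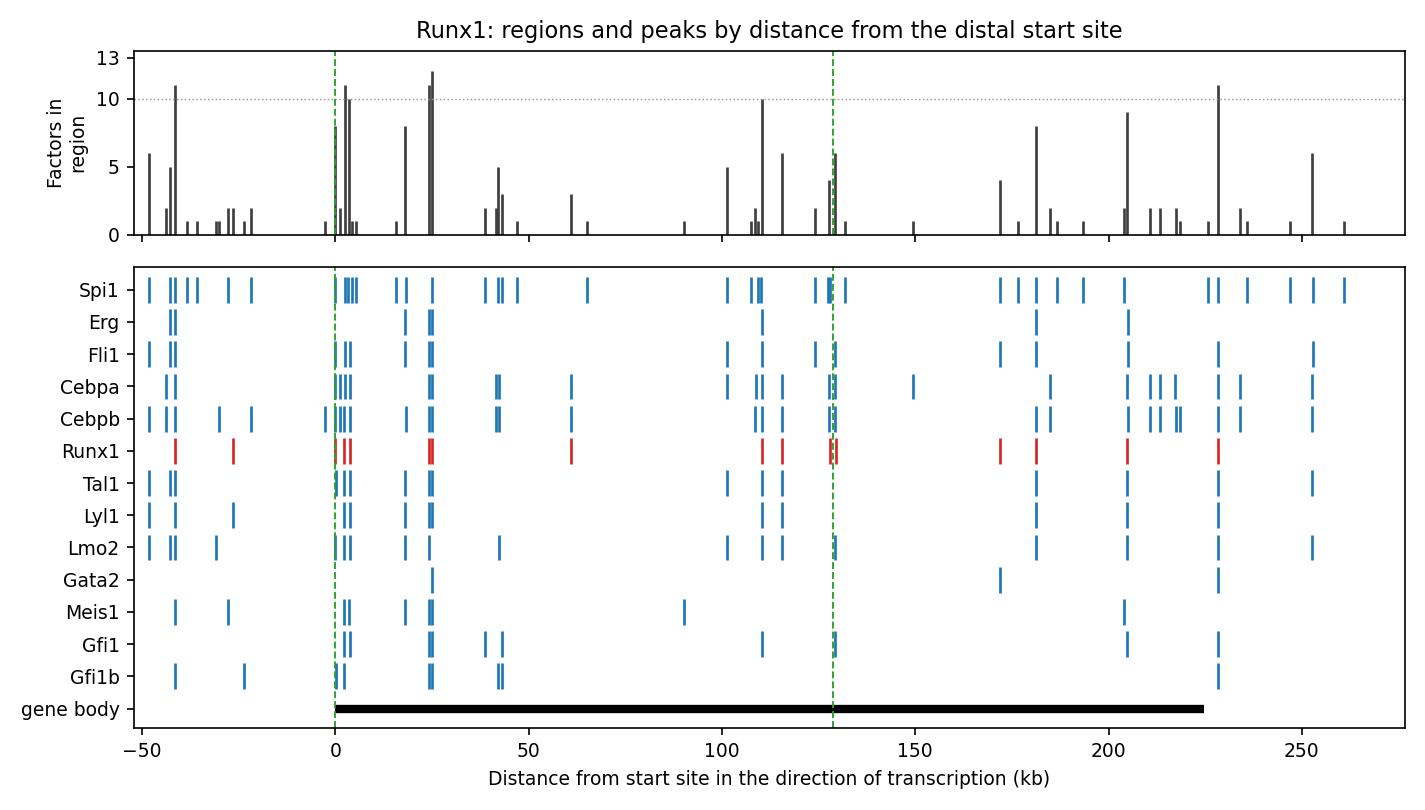
Peaks of the 13 factors along the Runx1 locus, by kb from the distal start in the direction of transcription, with the number of factors of each region above (dotted line at 10, dashed lines at the starts, bar for the gene body, Runx1 peaks in red). The 5 regions with 10 or more factors between the starts lie at 2.42, 3.53, 24.3, 25.1 and 110.3 kb.

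Along Runx1, positions are given in kb from the distal start (chr16:92826074) in the direction of transcription, so that positive values lie in or beyond the gene. The gene is on the minus strand and the proximal start (chr16:92697329) is at 128.745 kb. Exons were not told apart from introns, since no exon annotation was used here. The stretch between the starts held 25 regions with 107 peaks, 5 of the regions with 10 or more factors and 8 of the 16 Runx1 peaks. The stretch after the proximal start held 15 regions with 43 peaks and 4 Runx1 peaks, and none of its regions reached 10 factors. Per 100 kb that was 83.11 peaks between the starts and 44.86 after the proximal start, while the 50 kb upstream had 88.0 and the 50 kb downstream 46.0. Upstream there were 14 regions, counting the one on the distal start, with 44 peaks, and downstream 7 regions with 23.

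Upstream of Runx1, the region at -41.4 kb (chr16:92867236-92867756) held 11 factors, all but Gata2 and Gfi1. Its neighbour at -42.7 kb held the ETS factors Erg, Fli1 and Spi1 with Lmo2 and Tal1, without Runx1. The region at -48.1 kb held Cebpb, Fli1, Lmo2, Lyl1, Spi1 and Tal1. At -26.4 kb only Lyl1 and Runx1 were found. All but 1 of the locus' 61 regions had Runx1 as the nearest protein-coding gene.

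Just inside the gene a pair of regions followed the distal start. The region at 2.42 kb (chr16:92823301-92824009) held 11 factors and lacked Erg and Gata2, and the one at 3.53 kb (chr16:92822009-92823076) held 10 and lacked Erg, Gata2 and Gfi1b. At 18.1 kb (8 factors) Cebpb, Erg, Fli1, Lmo2, Lyl1, Meis1, Spi1 and Tal1 were present and Runx1 was not.

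The region with the most factors belonged to a pair 272 bases apart. The region at 24.3 kb (chr16:92801533-92802024) held 11 factors and lacked Gata2 and Spi1, with all peak midpoints within 92 bp. The region at 25.1 kb (chr16:92800751-92801260) held 12 and lacked Lmo2, with midpoints within 110 bp. Spi1 and Gata2 were thus found on 1 of the pair and Lmo2, the bridging protein of the Tal1 and Lyl1 complex, on the other, while each of the other 10 factors had a peak on both. The Runx1 midpoints were 759 bp apart. In the genome 99.6% of regions with 10 or more factors held Lmo2, 93.3% held Spi1 and 7.35% held Gata2. The position of the known enhancer of Runx1 was not used here, so it was not matched to a region.

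Further along, the region at 42.2 kb held Cebpa, Cebpb, Gfi1b, Lmo2 and Spi1, and the one at 101.4 kb held Cebpa, Fli1, Lmo2, Spi1 and Tal1. The region at 61.1 kb, over the non-coding gene Gm30281, held Cebpa, Cebpb and Runx1. The region at 110.3 kb (chr16:92715432-92716207) held 10 factors, all but Gata2, Gfi1b and Meis1, and its Spi1 midpoint was 349 bp from that of Runx1. At 115.6 kb were Cebpa, Cebpb, Lmo2, Lyl1, Runx1 and Tal1.

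The proximal start was flanked and not covered. The region at 127.8 kb (chr16:92697826-92698806) held Cebpa, Cebpb, Runx1 and Spi1, and the one at 129.3 kb (chr16:92696493-92697014) held Cebpa, Cebpb, Fli1, Gfi1, Lmo2 and Runx1. After it, the region at 172.0 kb held Fli1, Gata2, Runx1 and Spi1. The region at 181.2 kb held 8 factors (Cebpb, Erg, Fli1, Lmo2, Lyl1, Runx1, Spi1 and Tal1), and the one at 204.9 kb held 9 (Cebpa, Cebpb, Erg, Fli1, Gfi1, Lmo2, Lyl1, Runx1 and Tal1) without Spi1. Past the end of the gene, 3.652 kb on, a region at 228.3 kb (chr16:92597544-92598084) held 11 factors, all but Erg and Meis1. At 252.7 kb were Cebpa, Cebpb, Fli1, Lmo2, Spi1 and Tal1. Gata2, an early progenitor factor, had its 3 peaks at 25.1, 172.0 and 228.3 kb, each on a region with Runx1.

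At Runx2 13 of the 14 regions with 5 or more factors lay in the gene body and 1 downstream. The gene body held 53 of the 58 regions, 157 of the 170 peaks (the start region among them) and all 9 Runx1 peaks, and the 50 kb upstream held 1 region. Positions are from chr17:44814627 on the minus strand. The region at 159.9 kb (chr17:44654426-44654970) held 12 factors, all but Gata2. Others with Runx1 were at 207.0 kb (9 factors), 200.5 kb and 114.1 kb (8 each) and 208.2 kb (Cebpa, Cebpb, Lmo2, Runx1 and Spi1).

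The other Runx1 peaks at Runx2 had few companions. They were at 193.9 kb with Lmo2, at 136.7 kb with Gfi1 and Gfi1b, at 37.7 kb with Cebpa and Cebpb, on the start of the overlapping gene Supt3, and at 78.2 kb alone, the only lone Runx1 peak of the 4 loci. Between 96.1 and 124.0 kb lay 7 regions with 5 to 8 factors each, of which Lmo2 was on all 7, Spi1 on 6 and Runx1 on 1. Regions without Runx1 also included 142.2 kb (Cebpa, Cebpb, Fli1, Gfi1, Lmo2, Lyl1 and Tal1), 199.5 kb (Fli1, Lmo2, Lyl1, Spi1 and Tal1), 198.8 kb (Cebpa, Erg, Fli1 and Tal1), 36.9 kb (Fli1, Lmo2, Meis1 and Spi1) and, past the gene end, 324.2 kb with 7 factors. The Gata2 peak at 273.1 kb was alone.

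At Runx3 all 9 regions with 5 or more factors had their midpoints outside the gene body, 3 upstream and 6 downstream. The one on the distal start, counted as upstream, reached into the gene. Positions are from chr4:135120645 on the plus strand, with the proximal start 31.9 kb on. Between the starts there were 10 regions with 18 peaks, and after the proximal start 3 regions of 1 peak each, none with 5 or more factors. In the 50 kb downstream there were 9 regions with 57 peaks (114.0 per 100 kb), 6 of them with 5 or more factors. These were at 58.7 kb (9 factors), 61.3 kb (7), 72.3 kb (9), 82.8 kb (8), 85.8 kb (11) and 105.5 kb (9), and each held Cebpa, Cebpb, Fli1, Lmo2, Spi1 and Tal1. Runx1 was on those at 72.3, 85.8 and 105.5 kb. The region of 11 factors (chr4:135206187-135206674) lacked Gata2 and Gfi1b. Its nearest protein-coding gene was Clic4, which codes for a chloride intracellular channel protein, and the region at 105.5 kb was inside Clic4.

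Upstream of Runx3, the region at -35.0 kb held 8 factors (Cebpa, Cebpb, Fli1, Lmo2, Meis1, Runx1, Spi1 and Tal1), and the one at -40.3 kb held Fli1, Gata2, Lmo2, Lyl1 and Tal1, the only Gata2 peak of the locus. Runx1 peaks were also found at -22.0 and 20.5 kb, each with Lmo2 and Spi1. Lmo2 was on 18 of the 34 regions (52.9%, exact 95% interval 35.1 to 70.2%), against 21.9% of all regions. Gfi1b was on none of the 34, with an exact upper limit of 10.3%, which lies above the 7.11% of all regions that held it.

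At Cbfb the peaks lay mostly beyond the gene. The gene body held 2 regions with 3 peaks, the start region held Cebpb, Fli1 and Spi1, and the 50 kb downstream held 9 regions with 25 peaks, among them all 3 Runx1 peaks. Positions are from chr8:105170674 on the plus strand. The Runx1 peaks were at 83.7 kb with Lmo2, at 89.3 kb with Cebpa, Cebpb, Erg, Fli1, Lmo2 and Spi1, and at 96.3 kb with Erg, Fli1, Gata2, Lmo2, Lyl1 and Spi1. Nearer genes there are B3gnt9, Tradd (an adaptor of the tumour necrosis factor receptor) and Fbxl8, and only 3 of the 12 regions had Cbfb as the nearest protein-coding gene. Of the 12 regions, 3 held Cebpa and Cebpb and no other factor. No Runx1 peak lay in Cbfb or before it. The limit of 50 kb ran close to such regions. The region at 96.3 kb was 48.961 kb past the end of Cbfb and the Runx3 region at 105.5 kb was 48.156 kb past the end of Runx3, while a region of 10 factors 50.598 kb before Runx3 was just outside.

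**Figure D3:**
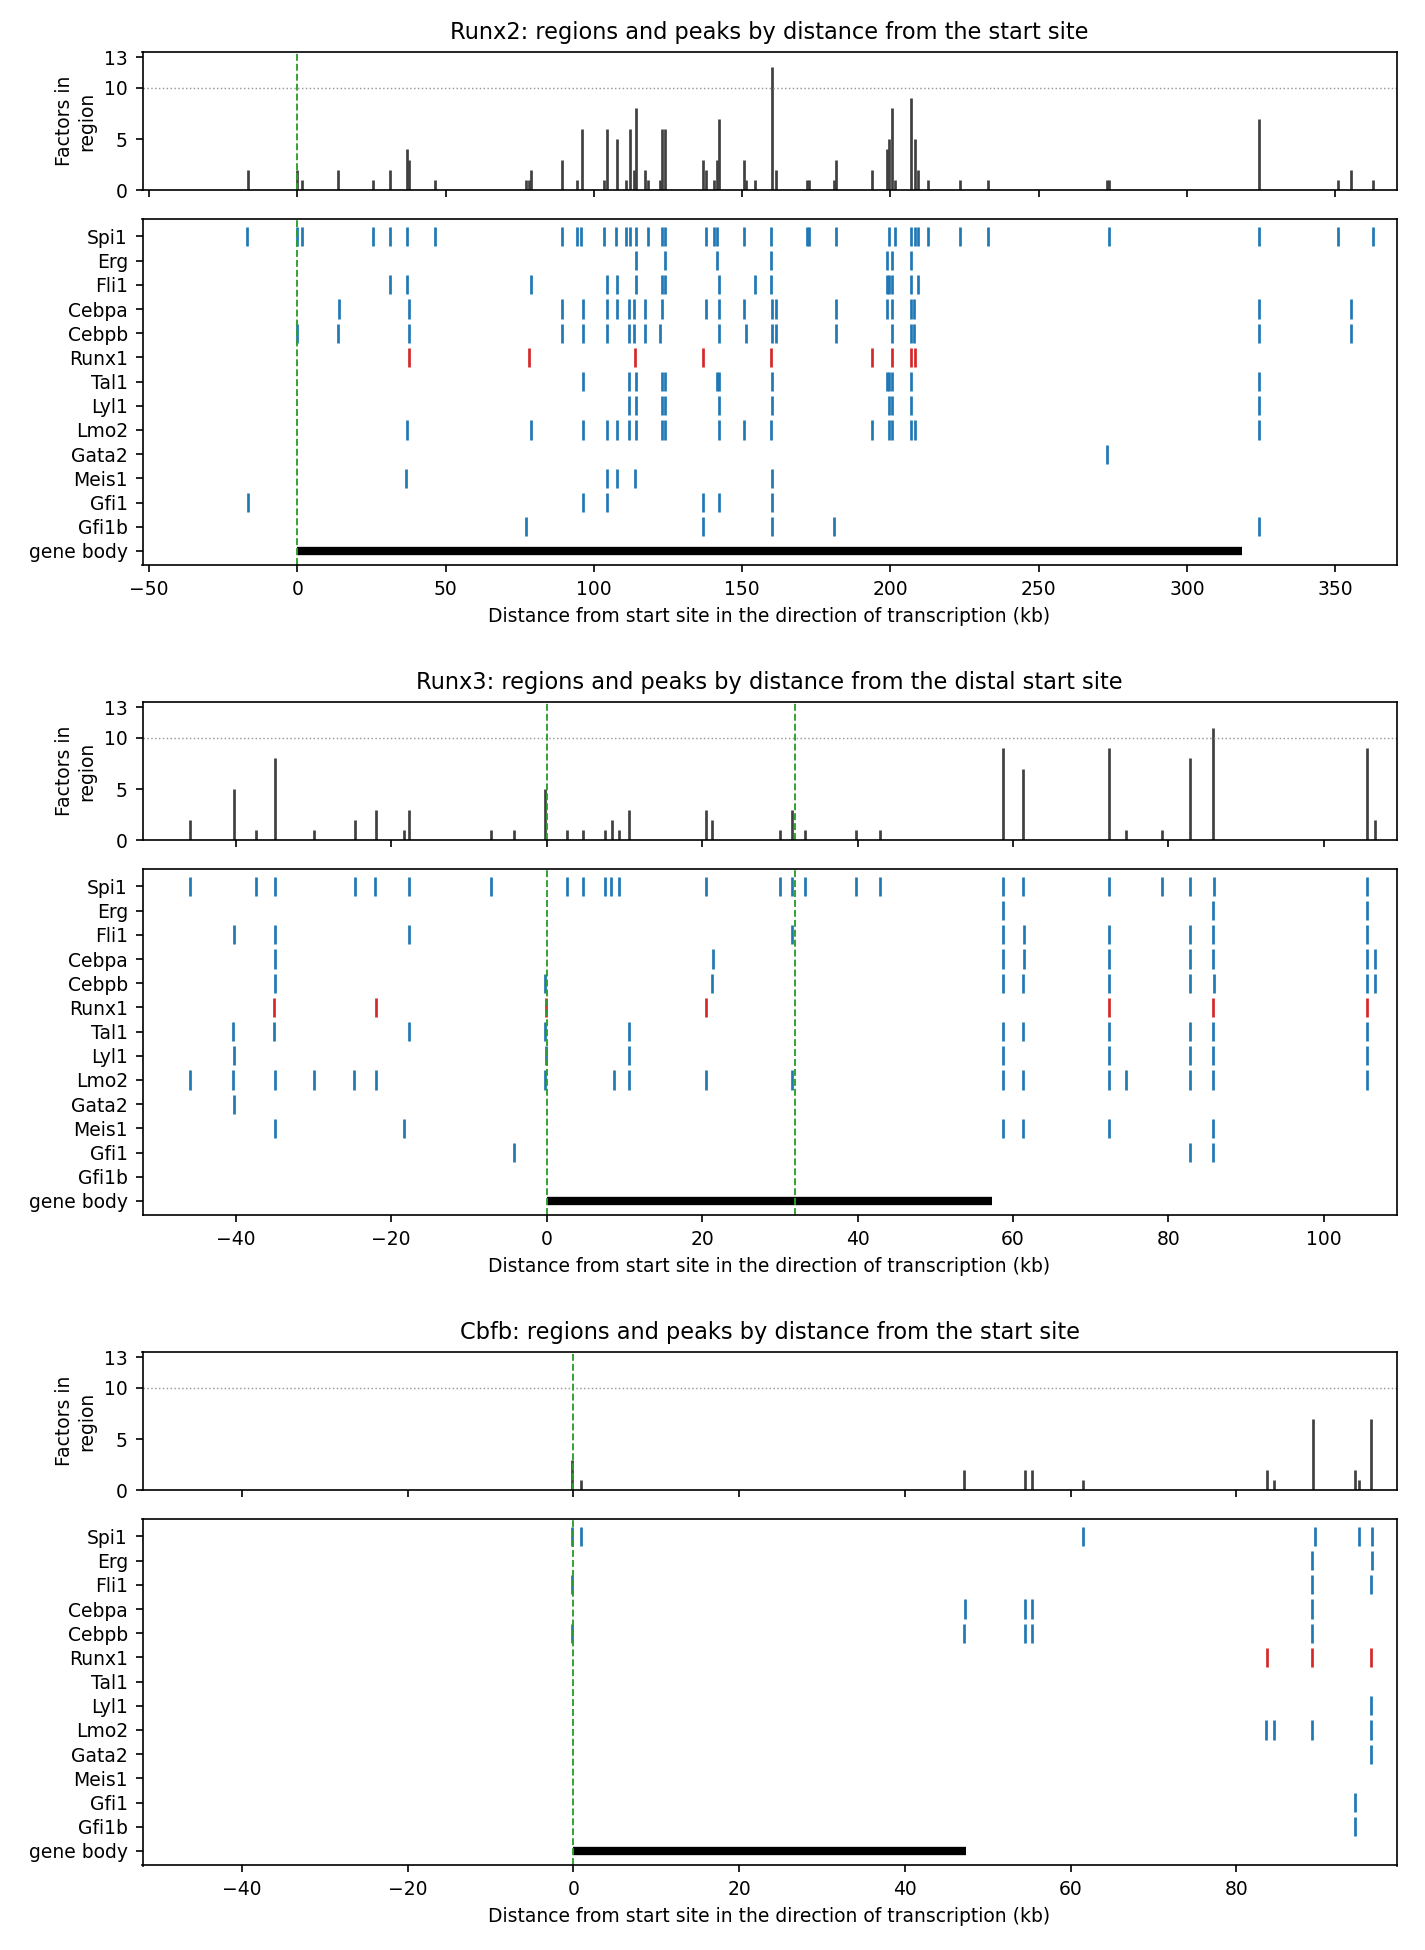
Peaks of the 13 factors at Runx2, Runx3 and Cbfb, by kb from the first start in the direction of transcription, with the number of factors of each region above and the same lines and colours as in the map of Runx1. By midpoint, at Runx2 13 of the 14 regions with 5 or more factors are in the gene body, at Runx3 3 of 9 are upstream and 6 downstream, and at Cbfb both are downstream.

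Of the 35 Runx1 peaks of the 4 loci, 1 stood alone (2.86%, against 5.18% of the whole Runx1 list). Of the 35, 27 overlapped Lmo2 (77.1%, against 75.8% of the list), 25 Cebpb (71.4%, 60.3%), 23 Cebpa (65.7%, 56.2%) and 22 Fli1 (62.9%, 68.9%). Lyl1 and Tal1 overlapped 20 each (57.1%), against 40.4% and 50.6% of the list, and Spi1 overlapped 21 (60%, against 69.0%). Erg overlapped 14 (40%, against 44.1%), Gfi1 11 (31.4%, 30.8%), Meis1 10 (28.6%, 23.8%), Gfi1b 8 (22.9%, 24.4%) and Gata2 4 (11.4%, 3.51%). Of the 6 Gata2 peaks, 4 overlapped Runx1 (66.7%), against 12.8% of the Gata2 list. With so few peaks the exact 95% interval of the 11.4% ran from 3.20 to 26.7% and held the 3.51% of the whole list.

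The share of a factor's peaks that overlapped no other factor was below that of its whole list for 12 of the 13 factors. For Cebpb, Erg, Fli1, Gfi1, Lmo2, Lyl1 and Runx1 the exact 95% interval held the share of the list. For Erg and Lyl1 that share was only 0.499% and 0.326%. The intervals of Cebpa, Gata2, Meis1, Spi1 and Tal1 lay below the share of the list. Spi1 was alone in 48 of 109 peaks (44.0%, against 58.5% of its list), Meis1 in 2 of 20 (10.0%, against 41.5%), Gata2 in 1 of 6 (16.7%, against 70.4%) and Tal1 in 0 of 40 (exact upper limit 8.81%, against 17.9%). Gfi1b went the other way with 3 of 15 (20%, exact 95% interval 4.33 to 48.1%, against 9.21%).

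Over all regions of a locus, whatever their number of factors, Runx1 was on 16 of the 61 at Runx1 (26.2%, exact 95% interval 15.8 to 39.1%), against 9.60% of all regions in the genome. Lyl1 was on 21.3% of the regions at Runx1 (11.9 to 33.7%, against 7.30%), Cebpb on 50.8% (37.7 to 63.9%, against 30.9%) and Tal1 on 26.2% (15.8 to 39.1%, against 14.1%). Cebpa was on 42.6% (30.0 to 55.9%, against 28.7%), Fli1 on 29.5% (18.5 to 42.6%, against 18.1%) and Gfi1 on 16.4% (8.15 to 28.1%, against 7.77%). The intervals of all these factors lay above the share in the genome. Those of Erg, Gata2, Gfi1b, Lmo2 and Meis1 held it. The intervals treat neighbouring regions as independent, and no difference was tested. For Spi1 the share was 63.9% (50.6 to 75.8%), and 62.6% of all regions held it. Regions at Runx1 also held more factors each (mean 3.54, against 2.29). Among the 37 with 2 or more factors, the intervals of Cebpa, Cebpb, Fli1 and Gfi1 held the genome's share of such regions. Those of Runx1 (27.1 to 60.5%, against 20.9%), Lyl1 (20.2 to 52.5%, against 16.7%) and Tal1 (27.1 to 60.5%, against 26.5%) lay above it. Among the 18 with 5 or more, the intervals of all these factors held it, that of Runx1 being 41.0 to 86.7%, against 52.3%.

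**Figure D4:**
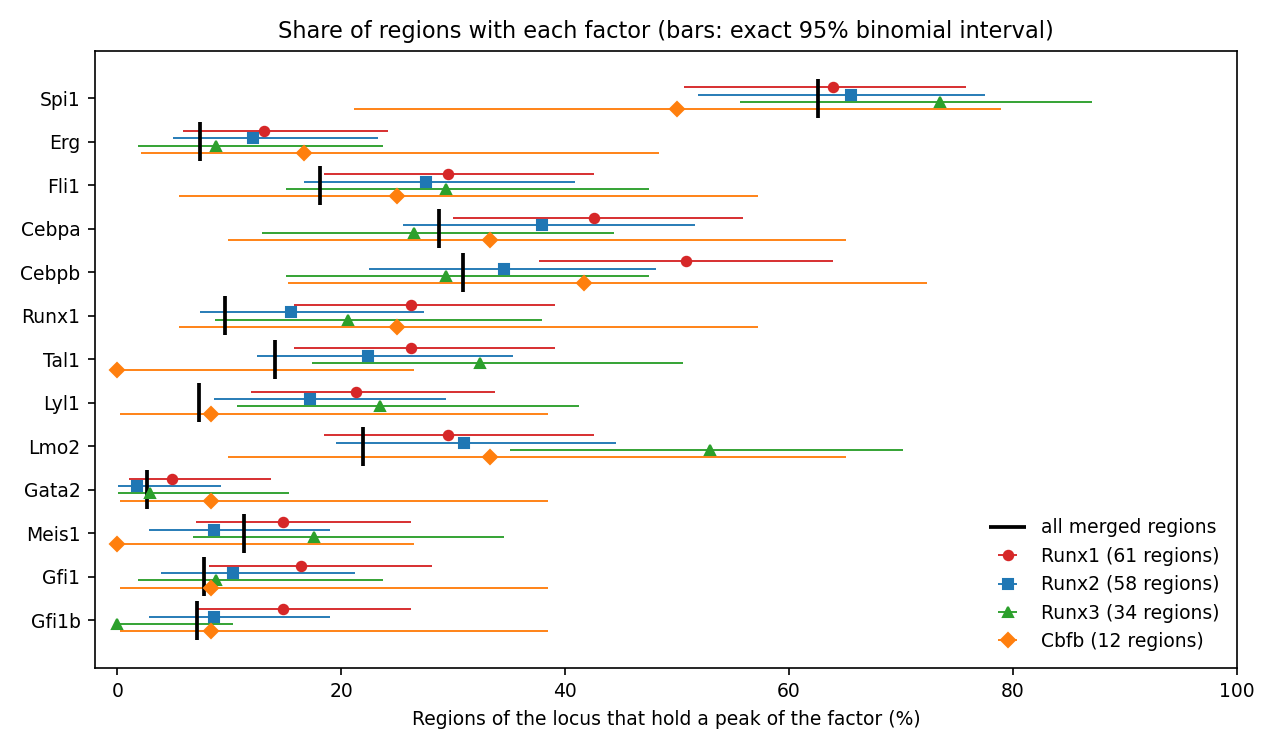
Share of all regions of each locus, in percent, that hold a peak of each factor, with exact 95% binomial intervals as horizontal bars and the share over all merged regions as black ticks. Spi1 is near its tick at Runx1 (63.9% against 62.6%), while Runx1 on its own locus (26.2%) and Lmo2 at Runx3 (52.9%) lie to the right of theirs.

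Of the 43 regions with 5 or more factors in the 4 loci, Lmo2 was on 42 (97.7%, against 92.0%), Runx1 on 24 (55.8%, exact 95% interval 39.9 to 70.9%, against 52.3%) and Spi1 on 34 (79.1%, against 83.9%). Lyl1 was on 30 (69.8%, 53.9 to 82.8%, against 50.4%) and Tal1 on 36 (83.7%, 69.3 to 93.2%, against 67.0%). Gata2 was on 4 (9.30%), with an interval of 2.59 to 22.1% that held the 3.63% of the genome. All 9 regions with 10 or more factors held Runx1, as did 90.4% in the genome, and Erg was on 6 of them (66.7%, 29.9 to 92.5%, against 84.9%).

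Midpoints of overlapping peaks lay close to that of Runx1. The median distance was 21.0 bp for Lmo2 (n = 27 pairs), 25.5 bp for Erg (n = 14), 28.0 bp for Lyl1 (n = 20) and for Gata2 (n = 4), and 30.0 bp for Cebpa (n = 23). It was 58.0 bp for Spi1 (n = 21), the farthest of the 12. Over the genome the medians were 31.0 bp for Lmo2 and Erg, 29 bp for Lyl1, 57.0 bp for Gata2, 48.0 bp for Cebpa and 49.0 bp for Spi1. Since every peak is 400 bp wide, a distance above that is no overlap.

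**Figure D5:**
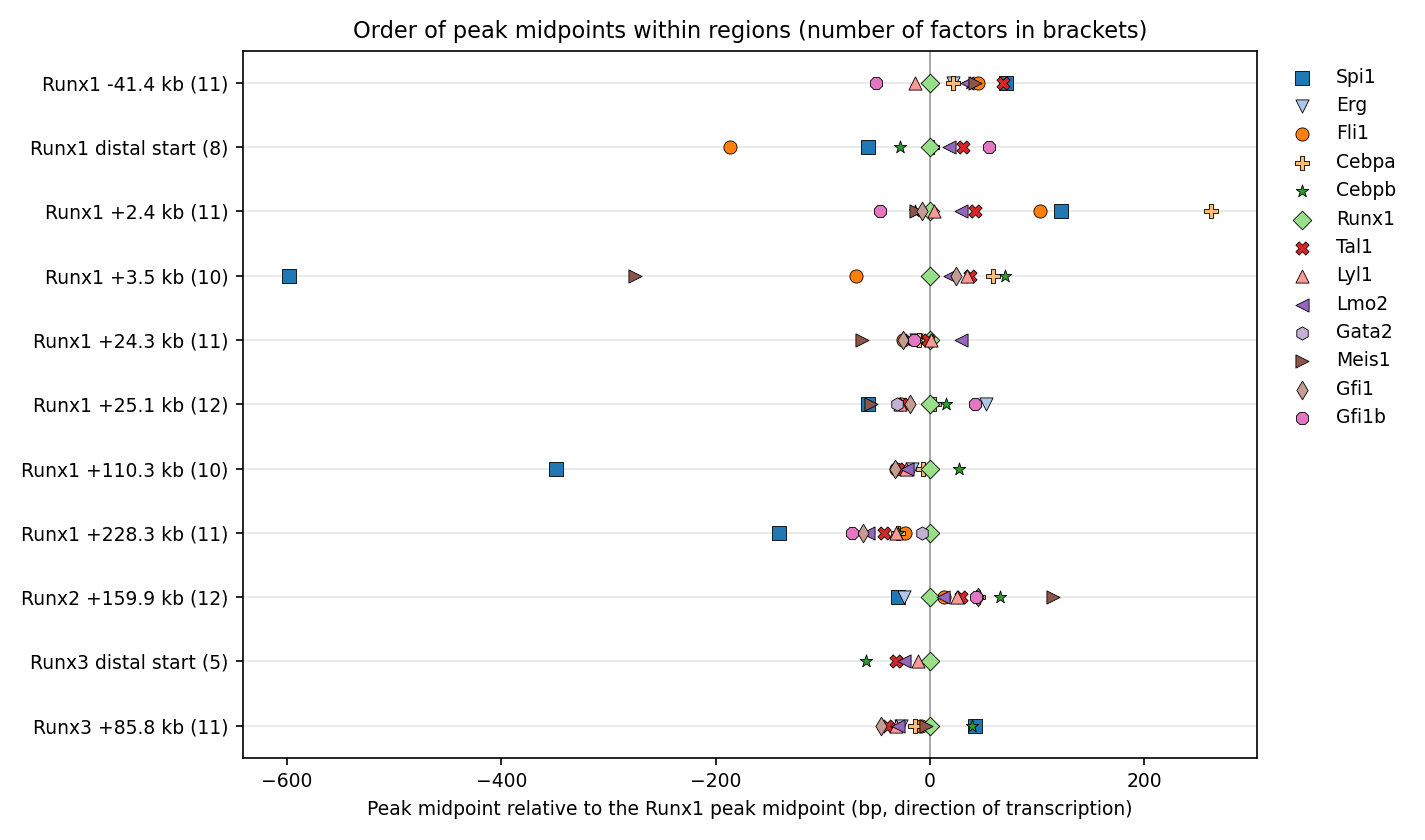
Peak midpoints of each factor relative to that of Runx1, in bp in the direction of transcription, for the regions with 10 or more factors and the distal starts of Runx1 and Runx3 (1 line per region, 1 symbol per factor). Most symbols crowd around 0, and the region at 24.3 kb of Runx1 spans 92 bp, while Spi1 is -598 bp and Meis1 -275 bp from Runx1 at 3.53 kb and Spi1 is -349 bp from it at 110.3 kb.

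Other genes had counts over the 13 factors like those of the members, measured by Bray-Curtis similarity over all protein-coding loci that do not overlap the member's (1 means equal counts). For Runx1 these were Maml3 (0.923), Cux1 (0.913), Vps13d (0.906), Itpr1 (0.893) and Itpr2 (0.893). For Runx2 they were Pebp4 (0.954), Slc9a9 (0.940) and Tiam1 (0.939), for Runx3 Uggt1 (0.912), Lgr6 (0.909) and Snx9 (0.904), and for Cbfb Tnfrsf18 (0.938), Mat2a (0.933) and Nelfe (0.931). The 5 genes most like Runx1 had 175 to 212 peaks and 3 to 6 regions with 10 or more factors.

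Genes of the Runx complex and known targets were also covered by Runx1 peaks. Of 18 genes for cofactors and partners, such as the acetyltransferases Ep300 and Crebbp and the Groucho-type repressors Tle1, Tle3 and Tle4, 15 had a Runx1 peak in the locus (83.3%, against 56.8% of all), and Ets1, Kat6a and Runx1t1 had none. Of 15 genes known as targets, 14 had one (93.3%) and Kit, the stem cell factor receptor gene, had none. The median number of factors in the locus was 11 for the partners and 12 for the targets, against 9 for all loci. A region with 10 or more factors was found at 10 of the 15 targets and 7 of the 18 partners, against 17.3% of all loci. Both lists were chosen with earlier results of these data known, and some loci in them overlap. Locus length, which bears on these shares, was not matched. The partner loci were 109.666 to 290.005 kb long and the target loci 101.905 to 181.736 kb, against a median of 117.329 kb for all loci.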

How the data were processed

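ChIP-seq of 13 factors in Hoxb8-FL cells, with 1 library each, was analysed; the rabbit IgG library was not analysed here. Each list the authors deposited gives only peak positions, all 400 bp wide, on mm10. The tools were MACS2, bedtools and Bowtie2 and the builds mm10 and GRCm38, per the submitters' processing notes. Tool versions, roles and calling thresholds were not given in the sources used here. Per the labels' protocols, fixation took 10 min and sonication 7 min. Without read counts, depth is unknown.

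Peaks on 19 autosomes and X were merged where they overlapped by 1 bp or more, which left out 3 lines. Genes, starts and sequences came from RefSeq tables of GRCm38.p6. Named were the members, regions with 5 or more factors at Runx1 and 4 or more elsewhere, regions with Runx1 or Gata2, regions within 1 kb of a start, and the genes most like each member. Members and lists were chosen with earlier results of these data known. Shares have exact Clopper-Pearson 95% intervals. Python 3.11.15, pandas 2.3.3, numpy 2.4.6 and scipy 1.17.1 were used, and the merging was tested on simulated data. Alternatives changed the flank, the assignment, the merging, the lines and lists used and the similarity.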

Additional observations from a re-analysis of the deposited data

How the results depend on the processing

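Counts at Runx1 changed by less than 1.5 times under most alternatives, and those at Runx3 and Cbfb depended on the flank. With 10 kb either side, Runx3 had 44 peaks in 18 regions, 2 Runx1 peaks and 0 regions with 10 or more factors, and Cbfb had 10 peaks of 4 factors in 5 regions and 0 Runx1 peaks. With 100 kb, Runx3 had 167 peaks in 55 regions, 12 Runx1 peaks and 2 regions with 10 or more factors, and Cbfb had 51 peaks in 21 regions. When only the first 50% of lines were read, whose order has no stated meaning, peaks numbered 141 at Runx1, 88 at Runx2, 60 at Runx3 and 15 at Cbfb. Regions then numbered 32 at Runx2, 21 at Runx3 and 7 at Cbfb, and Runx1 peaks 3 at Runx2, 3 at Runx3 and 1 at Cbfb. Regions with 10 or more factors then numbered 4 at Runx1 and 0 at Runx3, and the number of factors of 8 named regions moved by over 1.5 times. Fewer lines were used there by construction. Merging peaks up to 200 bp apart gave 2 regions with 10 or more factors at Runx2. By cosine similarity 1 of the most similar genes was shared for each of Runx1, Runx2 and Runx3 and 0 for Cbfb. Without Spi1, Runx1 had 5 regions with 10 or more factors, and the Runx2 start region kept 1 factor. Any overlap with the locus, merging at an overlap of 200 bp, and leaving out Gata2 moved no count by over 1.5 times. Merging at an overlap of 200 bp still left Runx1 with 5 regions of 10 or more factors. The region at 3.5 kb then held 8 factors and the one at 110.3 kb held 9. Loci other than those of the members were not recounted. No alternative motif core was tried. No paired analysis was possible because each factor has 1 library. Depth is unknown, so an absent peak does not show that binding was absent.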

Other observations

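Beyond the 50 kb limit, further regions with 10 or more factors had Runx1 as their nearest protein-coding gene. They lay before the distal start, 58.1 kb (12 factors), 96.0 kb (10), 202.8 kb (11), 225.4 kb (13) and 327.0 kb (10) from the gene. The one at 225.4 kb, chr16:93051204-93051753, held all 13 factors, Gata2 and Lmo2 included, while no region inside the Runx1 locus did. All 5 held Runx1, Lmo2, Lyl1, Spi1 and Tal1. The nearest such region to Runx3 outside its locus, at chr4:135069755-135070339, held 10 factors, with Runx1 among them and without Gata2, Gfi1b and Meis1. Whether any of these regions acts on Runx1 or Runx3 was not tested, and distance along the chromosome does not show it.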
